A study of Mus musculus with 6 samples.

Results

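T cell receptor variable gene usage was read from bulk RNA-seq of regulatory T cells (Tregs), the Foxp3-expressing CD4+ T cells that hold other immune cells in check. The members are every gene whose symbol starts with Trav (alpha chain) or Trbv (beta chain), and there were 119 of them among the 15944 genes measured, 95 Trav and 24 Trbv. A total of 7 of the 119 rows had a blank symbol and were named from their gene identifier. Splenic Tregs of C57BL/6 mice bearing fluorescent reporters of Foxp3 (RFP) and of the transcription factor RORγt (GFP) were enriched for CD4 and sorted as CD3+CD4+Foxp3+ cells in 2 groups. RORγt+ Tregs were positive for the RORγt reporter and were not gated on CCR6, and CCR6+RORγt- Tregs were negative for that reporter and positive for the chemokine receptor CCR6. Each group had 3 libraries. Both groups carry the reporters and were described as naive, and the labels give no age, no sex and no link between libraries and animals. The spread behind each p-value is thus that of libraries, and may be technical.

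In a developing T cell, 1 variable segment is joined to a joining segment of the same chain (with a diversity segment between them in the beta chain) by the Rag recombinase, and the joined exon is spliced to a constant gene. The end of the variable segment, from a conserved cysteine codon onward, begins the third complementarity-determining region, the loop of the receptor that contacts the peptide most directly. In a mixed population, the share of a variable gene among all transcripts of its chain therefore reads how often cells use it, weighted by receptor transcript level. In bulk RNA, fewer cells with a segment and less receptor RNA per cell cannot be told apart. Usage is given here as the share, in percent, of a gene's normalized count in the summed normalized counts of its chain in that library.

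The Trbv segments whose shares lay apart between the groups are shown by their last 60 bases, because this end enters the joint with the diversity and joining segments. Capitals run from the conserved cysteine codon to the end of the transcript shown. All are from GENCODE transcripts on GRCm38, on chromosome 6, and read 5′ to 3′ on the coding strand. Higher shares in RORγt+ Tregs were seen for Trbv1 (chr6:40891826-40891885, plus strand), Trbv31 (chr6:41557693-41557752, minus strand), Trbv26 (chr6:41227934-41227993, plus strand) and Trbv20 (chr6:41188918-41188977, plus strand).
Trbv1: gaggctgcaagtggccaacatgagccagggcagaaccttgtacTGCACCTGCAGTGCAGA
Trbv31: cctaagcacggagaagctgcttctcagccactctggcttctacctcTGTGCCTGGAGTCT
Trbv26: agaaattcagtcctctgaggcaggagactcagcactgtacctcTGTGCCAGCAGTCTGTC
Trbv20: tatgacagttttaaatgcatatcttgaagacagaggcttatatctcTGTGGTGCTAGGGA

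Lower shares were seen for Trbv16 (chr6:41152171-41152230), Trbv29 (chr6:41271822-41271881), Trbv13-2 (chr6:41121773-41121832) and Trbv13-3 (chr6:41130526-41130585), all on the plus strand.
Trbv16: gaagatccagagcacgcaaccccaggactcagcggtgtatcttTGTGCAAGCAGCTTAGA
Trbv29: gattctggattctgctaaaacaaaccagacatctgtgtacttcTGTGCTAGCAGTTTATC
Trbv13-2: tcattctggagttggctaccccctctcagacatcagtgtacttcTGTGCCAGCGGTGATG
Trbv13-3: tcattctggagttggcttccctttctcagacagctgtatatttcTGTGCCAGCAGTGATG
The germline stretch from the cysteine codon to the end of the transcript was 17 bases long in Trbv1, Trbv26, Trbv16 and Trbv29, 16 bases in Trbv13-2 and Trbv13-3, and 14 bases in Trbv31 and Trbv20. The Trbv31 transcript shown ends at chr6:41557693, just inside its gene model, which reaches 41557691.

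The 4 Trav segments shown are Trav1, Trav11, Trav13-4-dv7 and Trav16d-dv11, at chr14:52428817-52428876, chr14:53519800-53519859, chr14:53757862-53757921 and chr14:53047762-53047821, all on the plus strand of chromosome 14. Trav1 and Trav11 are the alpha segments of the invariant receptors of mucosal-associated invariant T (MAIT) cells and invariant natural killer T (NKT) cells, and the other pair are, of the segments that can also join to delta chain segments, those with the largest log2 fold changes of share in either direction.
Trav1: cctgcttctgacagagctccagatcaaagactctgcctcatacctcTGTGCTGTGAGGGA
Trav11: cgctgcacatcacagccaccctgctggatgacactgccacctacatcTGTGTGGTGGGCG
Trav13-4-dv7: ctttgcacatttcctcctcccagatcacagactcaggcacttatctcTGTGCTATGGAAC
Trav16d-dv11: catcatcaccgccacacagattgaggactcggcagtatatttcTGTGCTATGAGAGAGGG

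Column totals lay between 11325902 and 11890770 normalized counts. Ccr6, a gate of the other sort only, was higher in RORγt+ Tregs, at 698 to 900 normalized counts against 112 to 148 in CCR6+RORγt- Tregs (limma adjusted p = 0.00554). RORγt+ replicate 3 stood apart from the other libraries: 1247 genes were listed at 0 in it, against 438 to 638 in the other 5, and its correlation with them across genes was 0.932 to 0.938, against 0.947 to 0.967 among the other 5. The summed level of the CD8 T cell genes Cd8a and Cd8b1 was 116 to 152 normalized counts in RORγt+ Tregs and 99.0 to 183 in CCR6+RORγt- Tregs. Cd8a alone was at 17.3, 11.8 and 19.9 in RORγt+ Tregs and at 2.82, 68.7 and 3.95 in CCR6+RORγt- Tregs, so that CCR6+RORγt- replicate 2 stood out in Cd8a. It did not in Cd8b1, which was at 115, 105 and 132 in RORγt+ Tregs and at 113, 114 and 95.1 in CCR6+RORγt- Tregs. Neither gene was at 0 in any library, and their part in the results was not tested.

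No variable gene passed the test between the groups. Limma on the shares, fitted with the whole table and adjusted over all 15944 genes, called 0 of the 119 members at an adjusted p under 0.05, while 90 genes of the table (0.564%) were called, 51 higher and 39 lower in RORγt+ Tregs. Limma on the levels as deposited also called 0 members and 90 genes of the table. At an unadjusted p under 0.05 there were 8 members on the share scale (6 higher and 2 lower, 6.72% of the 119), against 1746 genes of the table (11.0%). On the level scale there were 5 (3 higher and 2 lower), against 1741 (10.9%). The median log2 fold change of the members on the share scale was -0.04, against -0.01 over all genes.

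The groups did not overlap in the shares of 21 members, 10 higher and 11 lower in RORγt+ Tregs. That is 17.6% of the 119, where 18.1% of all genes had groups that did not overlap (8.30% higher and 9.83% lower). The chains lay on either side of that share: 8 of 24 Trbv genes (33.3%) and 13 of 95 Trav genes (13.7%) had groups apart. Likewise 5 of 24 Trbv genes (20.8%) and 3 of 95 Trav genes (3.16%) had an unadjusted p under 0.05, against 11.0% of all genes, and the difference between the chains was not tested. Those 3 Trav genes were Trav7n-4, Trav3-3 and Trav12d-3. The groups overlapped in Trav12d-3, whose counts are given below with those of a near-identical copy. On the level scale the groups were apart in 19 members (12 higher and 7 lower, 16.0%), against 18.1% of all genes (8.31% higher and 9.81% lower). Of the Trbv genes, 4 were higher in level without overlap and 0 were lower, so the Trbv genes lower in share overlapped in level. Shares within a chain sum to a fixed total, so a higher share of some genes lowers the share of others. Without RORγt+ replicate 3 the groups were apart in share in 30 members, 25.2% of them, against 36.8% of all genes, and in level in 42 members, 35.3%, against 36.9%. Read uniqueness differed between the chains: 17 of 24 Trbv genes shared no 31-base window with transcripts of other genes, while the median Trav gene shared 68.9% of its windows and 21 of 95 shared all of them. Among the genes with groups apart, 6 of 8 Trbv genes and 1 of 13 Trav genes shared no window. Over all genes of each chain these were 17 of 24 and 6 of 95, so the proportions were near. The chains also differed in level, with a median of 202 normalized counts for Trbv genes and 35.2 for Trav genes. The median coefficient of variation of share in RORγt+ and CCR6+RORγt- Tregs was 0.107 and 0.102 for Trbv genes, and 0.268 and 0.219 for Trav genes. The part of these differences was not tested.

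**Figure D1:**
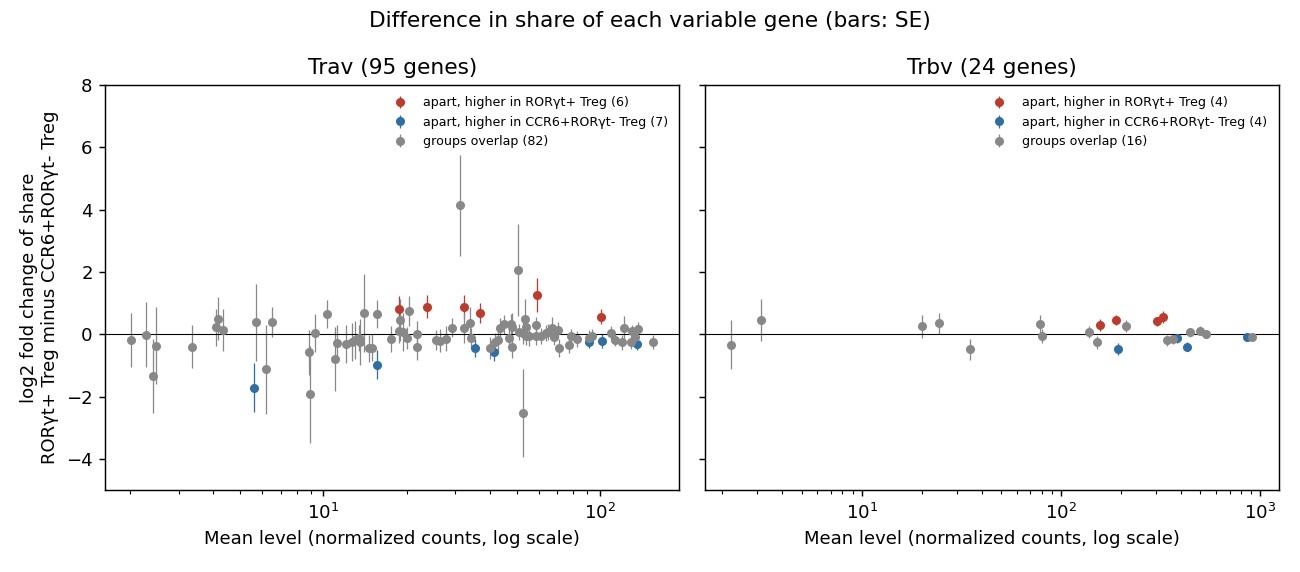
Log2 fold change of the share of each variable gene (RORγt+ Treg minus CCR6+RORγt- Treg, y axis, bars are SE) against its mean level in normalized counts (x axis, log scale), for 95 Trav genes (left) and 24 Trbv genes (right). Colours mark the 21 genes whose groups did not overlap. The Trbv points lie between -0.48 (Trbv23) and 0.57 (Trbv1). Trav points as far from 0 as Trav7n-6 at 2.08, among them Trav12n-3 at -2.53, belong to near-identical copies, while Trav3-4 at -1.71 does not.

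The order of the Trbv genes by share was similar in the 2 groups. Across the 24 Trbv genes the group mean shares had a Pearson r of 0.980 and a Spearman rho of 0.968, as a description over genes that share libraries, transcript lengths and depth. Trbv3 (chr6:41048290-41048828, formerly Tcrb-V16, per RefSeq) had the highest share. It made up 13.0%, 13.8% and 13.0% of Trbv counts in RORγt+ replicates 1 to 3 and 13.2%, 14.6% and 14.8% in CCR6+RORγt- replicates 1 to 3, so the groups overlapped (limma adjusted p = 0.859). Trbv13-2 (formerly Tcrb-V8.2) came next and ranked first per base of transcript. Its share was 12.4%, 12.6% and 12.3% in RORγt+ Tregs and 13.3%, 13.4% and 13.1% in CCR6+RORγt- Tregs, a narrow gap with no overlap and a log2 fold change of -0.09 ± 0.11 (SE, limma adjusted p = 0.848). Its neighbour Trbv13-3 (formerly Tcrb-V8.1) also lay lower without overlap, at 5.48% ± 0.217 against 6.01% ± 0.239 (SD, n = 3 each), while the third gene of the family, Trbv13-1, overlapped at 7.73% ± 0.535 and 7.13% ± 0.772. As a family the 3 Trbv13 genes took 25.6% ± 0.437 of the chain in RORγt+ Tregs and 26.4% ± 0.953 in CCR6+RORγt- Tregs, with overlap.

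The Trbv genes with the lowest unadjusted p were Trbv1, Trbv26, Trbv16, Trbv31 and Trbv29, and none of them passed the adjusted threshold. Trbv1 (chr6:40891229-40891885, formerly Tcrb-V2) is the first Trbv gene of the locus and lies upstream of all others measured. Its share was 4.94%, 4.86% and 7.15% in RORγt+ Tregs and 3.61%, 3.76% and 3.89% in CCR6+RORγt- Tregs. The groups did not overlap, and RORγt+ replicate 3 was the highest of all 6 libraries. Its log2 fold change was 0.57 ± 0.19 (SE, unadjusted p = 0.0208, limma adjusted p = 0.348), and 0.39 ± 0.13 without that replicate (limma adjusted p = 0.207).

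Trbv26 (chr6:41227505-41227993, formerly Tcrb-V3) varied little within a group. It took 3.38%, 3.29% and 3.20% of Trbv counts in RORγt+ Tregs and 2.24%, 2.37% and 2.52% in CCR6+RORγt- Tregs. The gap between the groups was wider than the range within either, and the log2 fold change of 0.47 ± 0.16 (SE, limma adjusted p = 0.360) was 0.49 ± 0.15 without RORγt+ replicate 3 (limma adjusted p = 0.189). Trbv31 (chr6:41557691-41558452, formerly Tcrb-V14) lies at the other end of the locus from Trbv1 and is the only measured Trbv gene on the minus strand. Its share was 5.14%, 4.56% and 5.73% in RORγt+ Tregs and 3.93%, 3.77% and 3.81% in CCR6+RORγt- Tregs, with a log2 fold change of 0.41 ± 0.16 (SE, limma adjusted p = 0.397). Trbv20 (formerly Tcrb-V15) had the smallest gap of the 4 higher genes, at 2.55%, 2.76% and 2.51% against 1.82%, 2.36% and 2.18% (limma adjusted p = 0.645).

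Trbv16 and Trbv29 stood on the other side in share, while their levels overlapped between the groups. Trbv16 (chr6:41151740-41152230, formerly Tcrb-V11) made up 5.96%, 5.80% and 5.03% of Trbv counts in RORγt+ Tregs and 7.64%, 7.11% and 7.29% in CCR6+RORγt- Tregs. All 3 RORγt+ libraries were below all 3 CCR6+RORγt- libraries, with a log2 fold change of -0.40 ± 0.14 (SE, limma adjusted p = 0.370), and -0.32 ± 0.11 without RORγt+ replicate 3 (limma adjusted p = 0.221). Trbv29 (chr6:41271394-41271881, formerly Tcrb-V7) took 2.40%, 2.25% and 2.63% in RORγt+ Tregs and 3.73%, 2.80% and 3.55% in CCR6+RORγt- Tregs. The groups were apart by a small margin, since CCR6+RORγt- replicate 2 lay near the highest RORγt+ library, and the log2 fold change was -0.46 ± 0.19 (SE, limma adjusted p = 0.440).

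The other abundant Trbv genes overlapped between the groups. Trbv5 (8.06% ± 0.514 against 7.94% ± 0.381, SD, n = 3), Trbv19 (6.77% ± 0.145 against 6.48% ± 0.527) and Trbv15 (5.27% ± 0.723 against 5.79% ± 0.440) had limma adjusted p between 0.836 and 0.977. Trbv4 and Trbv5 shared 73.6% and 78.7% of their windows with the overlapping gene model 5830405F06Rik, so their reads may be divided with it. Trbv23 and Trbv14, which varied most between libraries of a group among Trbv genes with a mean of at least 10 normalized counts, had 0.301%, 0.409% and 0.610% and 1.24%, 1.18% and 1.43% in RORγt+ Tregs, against 0.552%, 0.662% and 0.580% and 1.08%, 0.730% and 1.33% in CCR6+RORγt- Tregs, and both overlapped. Of the 2 Trbv pseudogenes, Trbv24 gave 0.411% ± 0.0542 and 0.321% ± 0.0611 of the chain, and Trbv22 stayed at 0.0514% or below in every library.

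**Figure D2:**
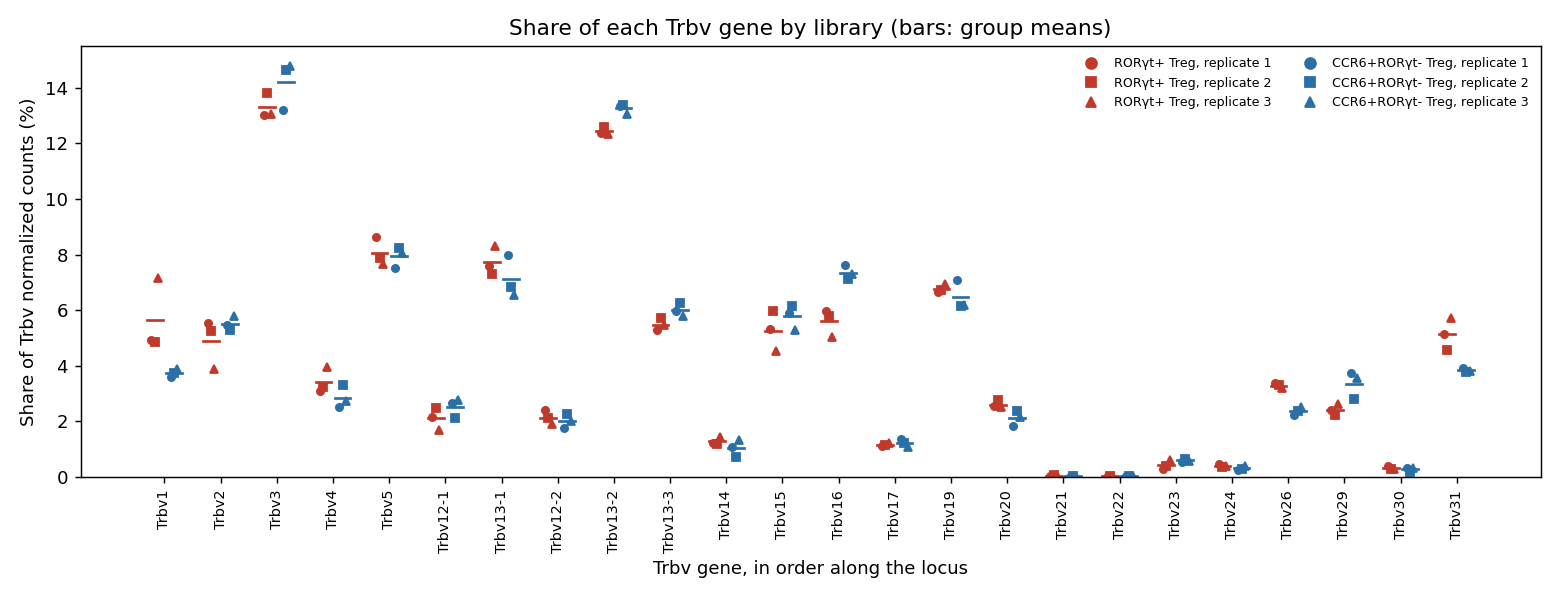
Share of each of the 24 Trbv genes in the Trbv normalized counts of a library (y axis, percent), in order along chromosome 6 (x axis). Points are libraries (RORγt+ Treg left and red, CCR6+RORγt- Treg right and blue) and horizontal bars are group means. Trbv3 and Trbv13-2 lead in every library, and Trbv1, Trbv26 and Trbv31 lie higher and Trbv16 lower in the red points without overlap.

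Beta chain usage was slightly more even in the RORγt+ libraries. The effective number of Trbv genes (the exponential of the Shannon entropy of the shares, which equals the number of genes if all were used equally) was 16.5, 16.4 and 16.5 in RORγt+ Tregs and 16.0, 15.8 and 16.2 in CCR6+RORγt- Tregs. The groups did not overlap, and no test was made of this score. The 5 leading Trbv genes took 48.4% ± 0.121 in RORγt+ Tregs and 49.9% ± 0.308 in CCR6+RORγt- Tregs (SD, n = 3), with no overlap. Both measures come from the same shares, so the second is not separate evidence. The mean Bray-Curtis dissimilarity of Trbv shares (the percent of usage that would have to be moved to turn one library's profile into another's) was 7.54% over the 9 pairs of libraries from different groups, 5.07% over the 3 pairs within RORγt+ Tregs and 4.27% over the 3 pairs within CCR6+RORγt- Tregs. Single pairs spanned 5.22% to 10.27% between groups, 2.97% to 6.46% within RORγt+ Tregs and 3.38% to 5.05% within CCR6+RORγt- Tregs. Pairs from different groups thus overlapped with pairs within RORγt+ Tregs. Pairs that crossed the groups and held RORγt+ replicate 3 averaged 10.04%, against 6.29% for those without it. Without RORγt+ replicate 3, pairs from different groups (6.29%) still differed more than the remaining pair of RORγt+ libraries (2.97%) and the CCR6+RORγt- pairs (4.27%).

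Alpha chain usage was spread over many more genes. The effective number of Trav genes was 64.7, 66.2 and 63.8 in RORγt+ Tregs and 64.6, 63.3 and 63.97 in CCR6+RORγt- Tregs, with overlap. Trav10 (chr14:53505727-53506286) had the highest mean share, at 3.23%, 4.24% and 2.66% of Trav counts in RORγt+ Tregs and 3.86%, 4.28% and 3.74% in CCR6+RORγt- Tregs (limma adjusted p = 0.767). Trav4-4-dv10, the next, was lower in RORγt+ Tregs without overlap, at 3.11%, 3.15% and 2.39% against 3.18%, 3.91% and 3.54% (limma adjusted p = 0.687). The 6 that followed, Trav3d-3, Trav14d-1, Trav7-4, Trav6-7-dv9, Trav14d-2 and Trav4d-4, averaged 2.48% to 3.31% in RORγt+ Tregs and 2.53% to 3.29% in CCR6+RORγt- Tregs. Their groups overlapped, with limma adjusted p between 0.788 and 0.964. The 95 Trav genes had a Pearson r of 0.942 and a Spearman rho of 0.922 between the group mean shares, given as a description over genes that share libraries and, for many of them, reads.

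The mean dissimilarity of Trav shares was 15.0% over pairs from different groups, 15.2% within RORγt+ Tregs and 12.9% within CCR6+RORγt- Tregs, so pairs of libraries from different groups differed about as much as pairs within the RORγt+ group. With genes summed to families the values were 5.84%, 5.96% and 3.90%.

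Among Trav genes with a mean of at least 10 normalized counts, those with groups apart and the largest log2 fold changes were mostly of low level. Below that floor, Trav3-4 (mean 5.62) also had groups apart, with a larger log2 fold change of -1.71 ± 0.79 (SE, limma adjusted p = 0.495). Trav13d-2 took 1.74%, 2.17% and 1.59% in RORγt+ Tregs and 1.13%, 1.27% and 0.289% in CCR6+RORγt- Tregs, with CCR6+RORγt- replicate 3 the lowest by far (log2 fold change 1.25 ± 0.55, SE, limma adjusted p = 0.470). Without that library the log2 fold change was 0.59 ± 0.30 (limma adjusted p = 0.760). All of its windows also occur in Trav13n-2, which has no row among the members, so its value may hold counts of both. Trav7n-4 took 0.732%, 0.726% and 0.662% against 0.376%, 0.529% and 0.252% (log2 fold change 0.89 ± 0.37, limma adjusted p = 0.450). Trav12d-1 took 1.05% ± 0.262 against 0.626% ± 0.0835 (limma adjusted p = 0.500), and all of its windows occur in Trav12n-1, which also has no row among the members. Trav13-4-dv7 took 0.692%, 0.723% and 1.39% in RORγt+ Tregs and 0.353%, 0.521% and 0.565% in CCR6+RORγt- Tregs (limma adjusted p = 0.482), and its log2 fold change of 0.88 was 0.56 without RORγt+ replicate 3, the highest library. Trav16d-dv11 was lower in RORγt+ Tregs, at 0.275%, 0.372% and 0.129% against 0.523%, 0.427% and 0.529% (limma adjusted p = 0.517).

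Trav1 (chr14:52427928-52428876) shared no window with another gene and completes this set of 6. Its level was 29.5, 21.7 and 22.4 normalized counts in RORγt+ Tregs and 13.7, 15.5 and 9.82 in CCR6+RORγt- Tregs. All 3 RORγt+ libraries were higher, also as shares, at 0.781%, 0.584% and 0.384% against 0.316%, 0.362% and 0.251%, with a log2 fold change of share of 0.82 ± 0.40 (SE, limma adjusted p = 0.534). Zbtb16, a transcription factor of MAIT and NKT cells, stood at 0 to 4.86 normalized counts in RORγt+ Tregs and 0 to 1.35 in CCR6+RORγt- Tregs. Klrb1c, a surface receptor of NK and NKT cells, stood at 17.4, 5.78 and 59.2 against 19.1, 28.1 and 39.5, with overlap. Trav11 overlapped, at 15.9, 20.9 and 13.7 normalized counts against 15.3, 21.8 and 17.2 (limma adjusted p = 0.967 on the level scale). Of its windows, 99.7% also occur in Trav11d, which has no row among the members, so Trav11 may hold counts of both.

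Trav genes named with -dv can be joined in alpha or in delta chains. The 10 measured made up 10.9% ± 0.276 of Trav counts in RORγt+ Tregs and 10.7% ± 0.727 in CCR6+RORγt- Tregs (SD, n = 3), with overlap. Besides the 4 given above, Trav21-dv12 (1.23% against 1.18%) and Trav14d-3-dv8 (1.53% against 1.46%) were the most abundant by group mean, and the 4 genes of the Trav15 family (Trav15-1-dv6-1, Trav15-2-dv6-2, Trav15d-1-dv6d-1 and Trav15d-2-dv6d-2) summed to 0.849% ± 0.344 and 0.605% ± 0.0527. Trdc, the delta constant gene, was at 99.8, 89.2 and 109 normalized counts in RORγt+ Tregs and 51.5, 61.8 and 71.5 in CCR6+RORγt- Tregs. The groups did not overlap, and the limma adjusted p was 0.354. None of the 5 delta genes (Trdc and 4 Trdv genes) and none of the 6 gamma genes (Trgc1 to Trgc4, Trgv1 and Trgv2) measured passed the test in either direction. The summed gamma genes were at 81.6 to 126 normalized counts in RORγt+ Tregs and 82.6 to 130 in CCR6+RORγt- Tregs.

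Summed to families, 4 of 20 Trav families (20%) had groups that did not overlap, near the 18.1% of all genes. Trav13 (12 genes) took 6.85%, 7.01% and 7.06% of Trav counts in RORγt+ Tregs and 6.13%, 5.39% and 5.32% in CCR6+RORγt- Tregs (log2 fold change 0.31 ± 0.15, SE, limma adjusted p = 0.525). Trav1, a family of 1 gene, was the other higher one. Trav4 (6 genes) took 7.71%, 8.26% and 7.92% against 9.91%, 8.54% and 9.91% (log2 fold change -0.24 ± 0.14, SE, limma adjusted p = 0.628). Trav16 (3 genes) took 2.76% ± 0.0481 against 3.18% ± 0.128 (SD, n = 3, limma adjusted p = 0.766). The families with the highest shares, Trav6 (13 genes, 13.8% against 13.4%), Trav14 (7 genes, 13.4% against 13.2%) and Trav7 (12 genes, 13.2% against 13.1%), overlapped. The letters d and n in Trav symbols mark genes of duplicated blocks of the locus. The 35 d genes took 35.6%, 35.6% and 37.8% of Trav counts in RORγt+ Tregs and 35.7%, 34.7% and 32.8% in CCR6+RORγt- Tregs, and the 14 n genes 14.6%, 13.1% and 12.7% against 13.8%, 13.0% and 14.2%, both with overlap. Several d genes share all of their windows with an n gene that is not among the members, such as Trav14d-1 with Trav14n-1 and Trav3d-3 with Trav3n-3. A d share may thus hold counts of n genes, and the 2 shares do not compare use of the blocks.

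**Figure D3:**
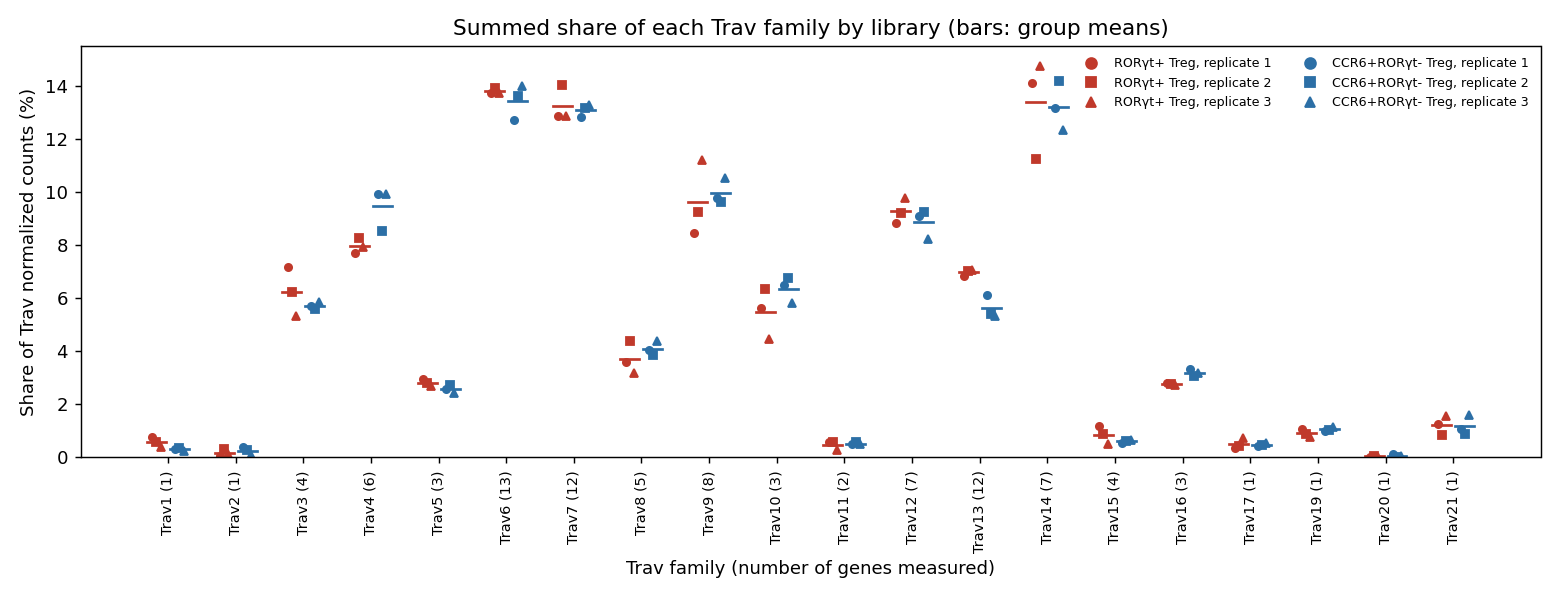
Summed share of each of 20 Trav families in the Trav normalized counts of a library (y axis, percent), with the number of measured genes in brackets (x axis). Points are libraries (RORγt+ Treg left and red, CCR6+RORγt- Treg right and blue) and horizontal bars are group means. Trav13 lies higher and Trav4 lower in the red points, at 6.97% against 5.61% and 7.96% against 9.45% in the means, and most other families overlap.

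For some near-identical Trav copies, the counts stood under either copy or both, depending on the library. How reads were assigned to the copies was not tested. Trav12d-3 was listed at 0, 43.8 and 143 normalized counts in RORγt+ replicates 1 to 3 and at 0 in all 3 CCR6+RORγt- libraries, and no fold is given against them. Its copy Trav12n-3 was at 52.1, 33.9 and 0 in RORγt+ Tregs and at 86.7, 89.8 and 52.5 in CCR6+RORγt- Tregs. The sum of both was 1.98% ± 0.544 of Trav counts in RORγt+ Tregs and 1.81% ± 0.408 in CCR6+RORγt- Tregs (SD, n = 3), with overlap, and over the 6 libraries its coefficient of variation in share was 23.2%, against 169% for Trav12d-3 and 59.7% for Trav12n-3 alone. The Trav12n-3 transcript (353 bases) is the whole of the Trav12d-3 transcript (347 bases) with 6 more bases at the 5′ end, in capitals in its first 36 bases (chr14:53240745-53240780, plus strand, GRCm38), shown with the first 30 bases of Trav12d-3 (chr14:52929789-52929818, plus strand).
Trav12n-3: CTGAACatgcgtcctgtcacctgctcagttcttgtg
Trav12d-3: atgcgtcctgtcacctgctcagttcttgtg

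Trav7d-6 (C920008G01Rik in the annotation) and Trav7n-6 also had counts under a different copy in different libraries. Trav7n-6 was at 48.8, 63.8 and 79.6 normalized counts in RORγt+ Tregs and at 45.9, 0 and 65.6 in CCR6+RORγt- Tregs, and Trav7d-6 was at 0 in every library but CCR6+RORγt- replicate 2, where it had 53.6. The sum of this pair was 1.46% ± 0.227 of Trav counts in RORγt+ Tregs and 1.33% ± 0.318 in CCR6+RORγt- Tregs (SD, n = 3), with a coefficient of variation of 18.5% over the 6 libraries. The transcripts differ by 1 base more at the 5′ end of Trav7n-6. In the same library Trav6d-3 had 14.5 normalized counts and was at 0 in the other 5, while Trav6-3 had 12.2 there, against 49.98, 49.3 and 75.5 in RORγt+ Tregs and 74.4 and 60.5 in the other CCR6+RORγt- libraries. Summing did not level this pair: in CCR6+RORγt- replicate 2 it took 0.623% of Trav counts, where the remaining 5 libraries had 1.29% to 1.71%. That is also the library with the high Cd8a value, though its Cd8b1 value did not stand out, and the part of other cells in it was not tested. The coding parts of Trav6-3 and Trav6d-3 (338 bases each, counted from 1 at the start codon) differ by the substitution A336T (Trav6-3 first), in capitals in their last 40 bases at chr14:53430338-53430377 and chr14:52726880-52726919 (plus strand, GRCm38).
Trav6-3: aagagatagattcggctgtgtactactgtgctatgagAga
Trav6d-3: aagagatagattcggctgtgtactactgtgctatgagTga
A further pair with at least 90% of windows in common, Trav13-3 and Trav13d-3, summed to 0.194% ± 0.0870 and 0.187% ± 0.0685 of Trav counts in the RORγt+ and CCR6+RORγt- groups.

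**Figure D4:**
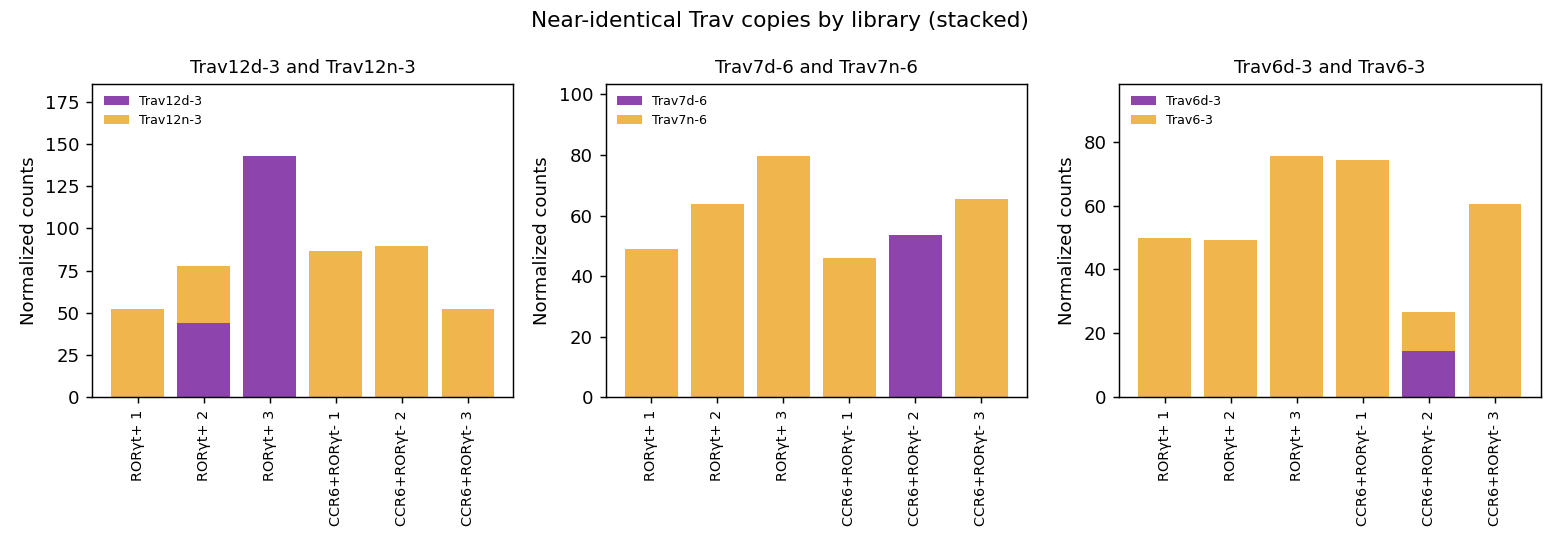
Normalized counts (y axis) of 3 pairs of near-identical Trav genes in each library (x axis, RORγt+ Treg left, CCR6+RORγt- Treg right), stacked so that the bar height is the sum of the pair. Trav12d-3 carries the counts of its pair in RORγt+ replicate 3 (143) and is at 0 in the CCR6+RORγt- libraries, and Trav7d-6 and Trav6d-3 have counts in CCR6+RORγt- replicate 2 (53.6 and 14.5).

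The summed level of the chains did not separate the groups. Trav genes summed to 3772, 3711 and 5829 normalized counts in RORγt+ Tregs and 4348, 4287 and 3907 in CCR6+RORγt- Tregs, a log2 ratio of the means of 0.09 that was -0.16 without RORγt+ replicate 3. Trbv genes summed to 6245, 5813 and 8814 against 6543, 6583 and 5961, a log2 ratio of 0.13 that was -0.08 without that replicate. In RORγt+ replicate 3 the alpha constant gene Trac (11561) and the summed beta constant genes Trbc1 and Trbc2 (19137) were also the highest of all libraries, as were Cd3e and Cd3d of the CD3 signalling complex. None of the 3 constant genes and none of the 4 CD3 genes passed the test. Cd3g lay apart, at 6632, 6918 and 6632 normalized counts in RORγt+ Tregs and 8215, 8107 and 7922 in CCR6+RORγt- Tregs (limma adjusted p = 0.402).

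Set against the constant genes, Trav counts per 100 Trac counts were 47.0, 48.0 and 50.4 in RORγt+ Tregs and 45.2, 43.8 and 45.4 in CCR6+RORγt- Tregs, with no overlap and no test made. Trbv counts per 100 Trbc counts overlapped, at 43.8 ± 2.15 and 44.4 ± 1.09 (SD, n = 3), as did the share of Trbc1 in the Trbc counts, at 36.0% ± 1.10 and 35.2% ± 0.497. No joining or diversity gene of either chain was among the rows analysed. Of the recombination genes, Dntt, which adds bases at the joints, was at 9.47 to 11.8 normalized counts in RORγt+ Tregs and 12.7 to 19.1 in CCR6+RORγt- Tregs (limma adjusted p = 0.738).

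**Figure D5:**
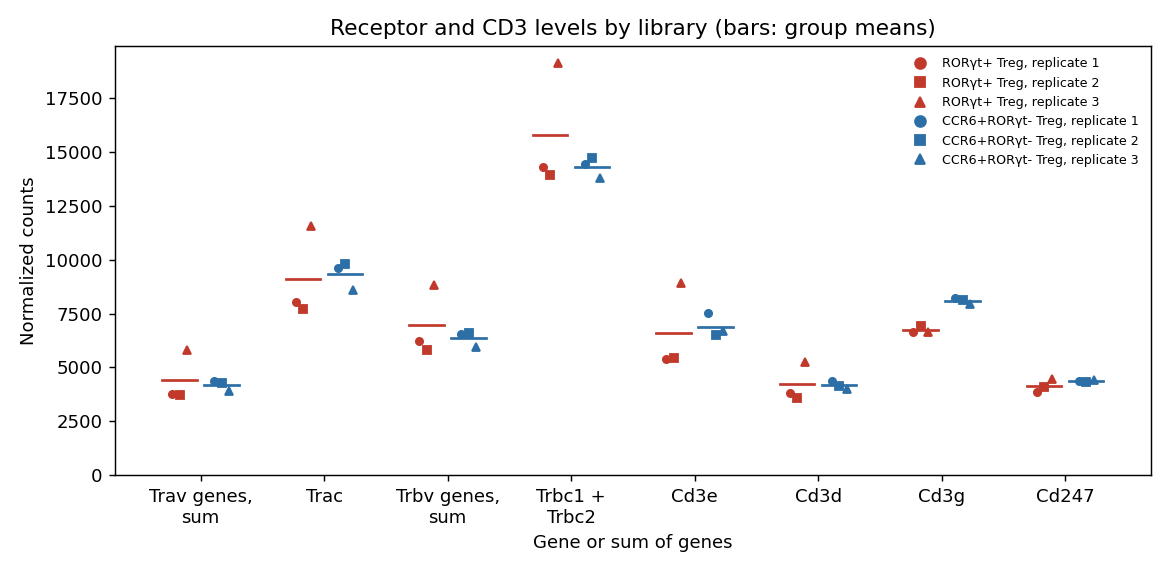
Normalized counts (y axis) of the summed Trav and Trbv genes, the constant genes and the CD3 genes in each library (x axis, gene or sum). Points are libraries (RORγt+ Treg left and red, CCR6+RORγt- Treg right and blue) and horizontal bars are group means. RORγt+ replicate 3 (triangle) is the highest library for both chain sums, at 5829 and 8814, and for the constant genes.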

How the data were processed

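The authors deposited 1 table with a signal value per gene and library: normalized counts with 2 decimals, not raw counts. The submitters' processing notes name Salmon 1.2.0, DESeq2 without a version, and GRCm38, but not what each was used for. Annotation and strand setting were not given in the sources used here. Salmon divides reads among similar transcripts by estimation, which bears on Trav copies.

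Shares were computed within each chain and library. A linear model on the group over all 6 libraries (limma 3.58.1, R 4.3.3, two-sided, moderated variances with a trend on the mean level) was fitted on log2(value + 1) of all 15944 genes, with no filter and Benjamini-Hochberg adjustment over all genes. For the share scale, Trav and Trbv rows were first scaled so that each chain total equalled its mean over libraries. Fold changes on this scale understate changes of low genes. A mean of at least 10 normalized counts was reached by 80 of 95 Trav and 22 of 24 Trbv genes. Gene models and sequences are from GENCODE M21 (GRCm38), and windows of 31 bases were searched on both strands. The fit was tested on simulated data.

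The members and lists were chosen with earlier results of these data known. Named are, per chain, the 8 highest shares, the 6 largest fold changes with groups apart (mean of at least 10), the 2 most variable genes, Trav1, Trav11, all -dv genes and genes at 0 in a whole group. Some sort and cell type markers are not reported here. Alternatives were pseudocounts of 0.1 and 5, a mean of at least 10, equal column totals, array weights, a replicate block, family sums and each library left out.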

Additional observations from a re-analysis of the deposited data

How the results depend on the processing

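No Trav or Trbv gene was called by limma under any alternative, on either scale: pseudocounts of 0.1 and 5, a mean of at least 10, equal column totals, array weights, the replicate block, families summed and each library left out. The lowest adjusted p of any of the 40 named genes was 0.0514 (Trav12d-3), within a range of 0.0514 to 0.778 for that gene. The count of calls over all genes was 90, against 358 with array weights and 1 with the replicate block, and 4 to 174 when each library was left out in turn (174 without RORγt+ replicate 3, 4 without RORγt+ replicate 1 or 2, and 8, 10 and 7 without CCR6+RORγt- replicates 1, 2 and 3). Array weights gave RORγt+ replicate 3 a weight of 0.200, against 1.15 to 1.69 for the others. Same-numbered libraries had correlations of deviations of -0.105, -0.022 and -0.184. With so few libraries per group, these cannot show whether the numbers pair them.

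Signs of fold changes held in 30 of the 40 named genes. On the level scale they turned for Trbv3 (0.012) and Trbv13-2 (0.013), and with array weights for Trav3d-3 (0.094), Trav11 (0.10) and Trav21-dv12 (-0.10). With libraries left out, the log2 fold change ranged from -0.30 to 0.12 for Trav3d-3, -0.048 to 0.57 for Trav14d-2, -0.029 to 0.058 for Trbv5, -0.41 to 0.18 for Trav11, -0.46 to 0.54 for Trav15d-1-dv6d-1, -0.013 to 0.18 for Trav14d-3-dv8, -0.14 to 0.48 for Trav15-2-dv6-2 and -0.14 to 0.29 for Trav21-dv12. No value exists for Trav6d-3 and Trav7d-6 without CCR6+RORγt- replicate 2, since every remaining library is at 0. The causes were not tested.

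The difference in effective number of Trbv genes, 0.463, stayed between 0.377 and 0.538 with libraries left out, and that of Trav genes, 0.934, between 0.273 and 1.499. Groups were apart in share in 10 of 41 families (24.4%, against 18.1% of all genes), a choice made after seeing the data. Levels of a few normalized counts rest on few reads, and shared windows limit what a single Trav value shows.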
